A study of Mus musculus with 6 samples.

Results

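Cytotoxic, natural killer (NK) and innate-like lymphocyte genes were followed in Thy1.2+ thymocytes of Rag1-/- mouse fetuses, as a set of 34 genes listed by symbol. Of these, 33 had a probe set that the array annotation gave to them alone, out of 19937 genes tested in all, and 1 member, Serpina3g, was not analysed here. Where a gene had several such probe sets the brightest over all arrays stood for it, which concerned Etv5. The members were 7 genes of the cytotoxic granule, 11 surface receptors, 9 transcription regulators, 3 secreted or released mediators and 3 other lymphocyte genes.

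RNA was measured on 6 one-colour whole-transcript arrays in 3 groups of 2. The first group, called 79-6, held cells stimulated for 40 h with anti-CD3 antibody and 50 µM of the compound 79-6, an inhibitor of the transcriptional repressor Bcl6. The second, called DMSO, held cells stimulated for the same time with the antibody and the solvent, and the third, called fresh, held cells of thymi taken at 0 h without stimulation. All came from E17.5 embryos lacking Rag1, so no group could rearrange its T cell receptor genes or form gamma-delta T cells from them. In such thymocytes anti-CD3 acts on CD3 chains at the cell surface and is known to drive them past the block in development. The series text speaks of organ cultures, while the sample labels name only stimulation and magnetic purification. Whether the replicates were separate cultures or litters is not stated, so the p-values rest on array-to-array spread, which may be technical. Values are log2 of RMA intensities and describe one probe set across arrays, not one gene against another.

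NK cells and cytotoxic T cells kill by releasing perforin and granzymes from granules, and they read target cells through lectin-like receptors such as CD94, NKG2A and NKG2D. Innate-like lymphocytes, among them fetal gamma-delta T cells and innate lymphoid cells, share much of this programme and depend on factors such as Nfil3, T-bet, Sox13 and Maf. Thy1, the antigen used for purification, is carried by thymocytes and also by innate lymphoid cells, so purification by Thy1.2 does not separate them. The fetal thymus is known to hold lymphoid precursors that can still become NK or innate lymphoid cells.

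The labelled cell type was checked first. Thy1 stood at 13.05 and 13.08 in the 79-6 arrays, 13.20 and 13.26 in the DMSO arrays and 12.82 and 12.78 in the fresh arrays, and Cd3e, a chain of the CD3 complex, at 12.94 to 13.00, 12.94 to 12.98 and 13.40 to 13.46 in the same order. Of the 4 T lineage markers measured, 3 were lower than fresh in both cultured groups, Ptcra, the pre-T cell receptor alpha chain, furthest (3.5-fold lower in 79-6 and 3.62-fold lower in DMSO cells), then Cd3g (-0.56 and -0.68) and Cd3e (-0.46 and -0.47), while Thy1 was higher (0.26 and 0.43). No T lineage marker passed for 79-6 against DMSO, where their changes ran from -0.16 to 0.12. Over the 6 arrays the 4 NK-defining genes ranged from 7.01 to 8.23 for Ncr1, 7.39 to 8.56 for Klrd1, 5.97 to 6.77 for Klrb1c and 5.66 to 6.18 for Eomes. No detection calls were used, so whether a low signal lies above background is not known. The mean of these 4 genes was 7.14 and 7.19 in 79-6 cells, 6.62 and 6.59 in DMSO cells and 6.78 and 7.12 in fresh cells. All 4 are members, so this mean repeats member values and is no separate check on them. Only Klrd1 of the 4 was called for 79-6 against DMSO (25%, beside 4.36% of all genes). In RNA from a mixed population fewer cells of a type and less RNA per cell cannot be told apart.

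Marker RNA of some other cell types also differed between groups. The mean of 10 macrophage and dendritic cell markers was 9.98 and 10.06 in 79-6 arrays, 9.46 and 9.54 in DMSO arrays and 8.08 and 8.80 in fresh arrays. Of these 10, Itgax (log2 change 1.13, adjusted p = 0.0073) and C1qa (0.98, adjusted p = 0.032) were called higher in 79-6 than in DMSO cells, and 5 were called higher in DMSO than in fresh cells. These are 20% of the list, beside 4.36% of all genes called, and 50%, beside 19.6%. In 79-6 against fresh cells 9 of the 10 were called, all higher (90%, beside 26% of all genes). The list's median log2 change there was 1.38. Granulocyte and mast cell markers averaged 7.53 and 7.82 in 79-6 arrays, 8.11 and 7.97 in DMSO arrays and 7.19 and 7.53 in fresh arrays. Of these markers 3 of 8 were called lower in 79-6 than in DMSO cells (37.5%, beside 4.36% of all genes called). Thymic epithelial markers averaged 8.36 and 8.39 in 79-6 arrays, 8.09 and 8.45 in DMSO arrays and 9.84 and 9.79 in fresh arrays. The fresh arrays differed from each other in a way that touches the members: 28 of 33 were higher in fresh replicate 2 than in fresh replicate 1, by a median of 0.26, against 49.5% of all genes and a median of -0.001. In the same pair of arrays all 10 macrophage and dendritic markers were higher in replicate 2, by a median of 0.75. The part of these cell types in the results on the members was not tested.

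**Figure D1:**
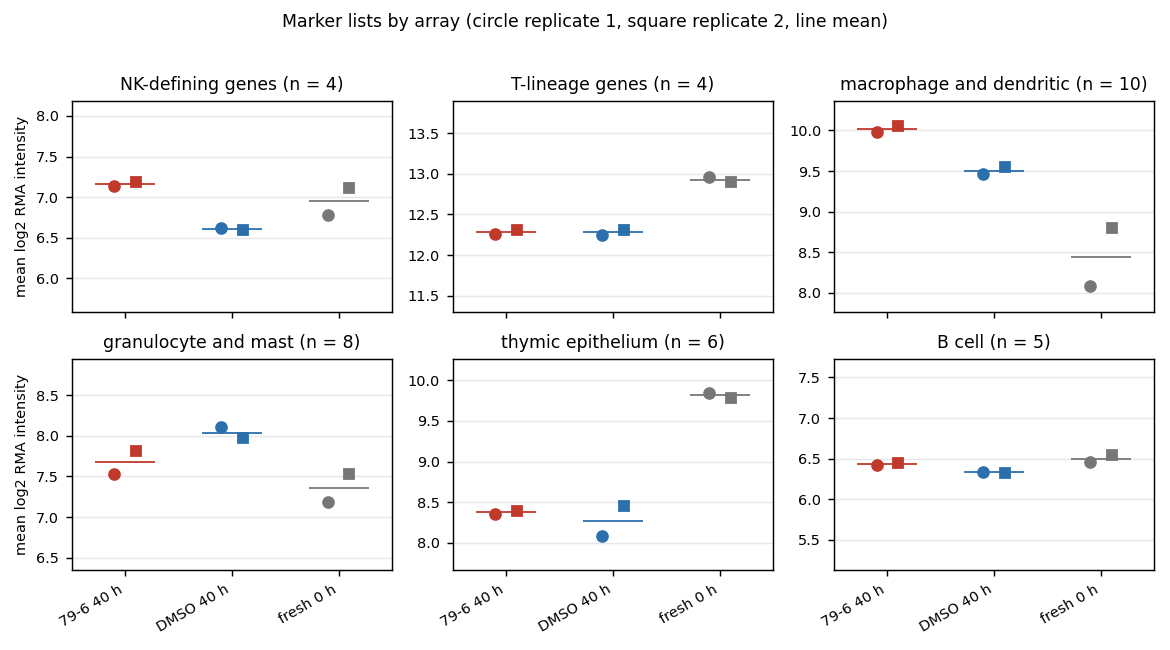
Mean log2 RMA intensity (y axis) of 6 marker lists on each array, by group (x axis); circles are replicate 1, squares replicate 2 and lines group means. NK-defining genes, all of them members, averaged 7.14 and 7.19 in 79-6 arrays against 6.62 and 6.59 in DMSO arrays. Fresh replicate 2 lay above fresh replicate 1 for NK-defining genes and for macrophage and dendritic markers.

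The first comparison, 79-6 against DMSO, asks what the compound changed in cells stimulated for the same 40 h. With the compound 12 of 33 members rose, 2 fell and 19 did not pass the test (limma, adjusted p under 0.05). The 14 called members are 42.4% of the set, beside 4.36% of all genes called in this comparison (2.38% higher and 1.98% lower). The members were chosen with earlier results of these data known. This share and those below therefore describe the set and are no independent support for a change in it. The members' median log2 change was 0.46, against 0.02 over all genes. In 26 members (78.8%, beside 26.8% of all genes) both 79-6 arrays lay above both DMSO arrays, and in 4 (12.1%, beside 22.2%) both lay below. Over all genes 475 were called higher and 394 lower, and 456 higher and 684 lower with every array set to 1 median, a scaling under which 14 members were higher and 3 lower. A change of at least 2-fold was called for 8 members, Jaml, Cd160, Klrb1b, Gzmb, Nkg7, Cd7, Fgl2 and Ctsw, and for 0.406% of all genes. The limma calls depended on each of the 4 arrays compared: 9 members were called without 79-6 replicate 1 and 3 without 79-6 replicate 2, while dropping DMSO replicate 1 left 4 and dropping DMSO replicate 2 left 3, and calls over all genes numbered 869 with all arrays and 93 to 661 in these 4 fits. Whichever single array was dropped, Nkg7, Cd160 and Jaml stayed past the threshold.

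The second comparison, DMSO against fresh, asks what 40 h of stimulation and culture changed without the compound, and holds culture, time, solvent and antibody together. Here 4 of 33 members rose, 14 fell and 15 did not pass the test. The called members are 54.5% of the set, beside 19.6% of all genes (8.89% higher and 10.7% lower). The members' median was -0.19, against 0.02 over all genes. Over all genes 1773 were called higher and 2129 lower, and 2388 higher and 1716 lower with every array set to 1 median, where 6 members were higher and 14 lower. Gzma was called at least 2-fold higher, and Gzmb, Nkg7, Ifng and Xcl1 at least 2-fold lower, while 2.6% of all genes passed both limits. Without DMSO replicate 2 the calls were 2 higher and 8 lower, and over all genes the calls numbered 2286 to 2382 in the fits without a DMSO or a fresh array, against 3902 with all arrays.

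The third comparison, 79-6 against fresh, adds the compound to culture and stimulation. It gave 15 members higher and 5 lower, or 60.6% of the set, beside 26% of all genes (12% higher and 13.9% lower). The median was 0.25, against 0.05 over all genes. A change of at least 2-fold was called for Cd7, Jaml, Fgl2 and Klrb1b, all higher, and for Gzmb, which was lower, and for 3.42% of all genes. The 3 comparisons share arrays pairwise (each group enters a pair of them), so their values stand side by side below and are not set against each other as independent results. The log2 changes of all 33 members in the 3 comparisons are drawn by role.

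**Figure D2:**
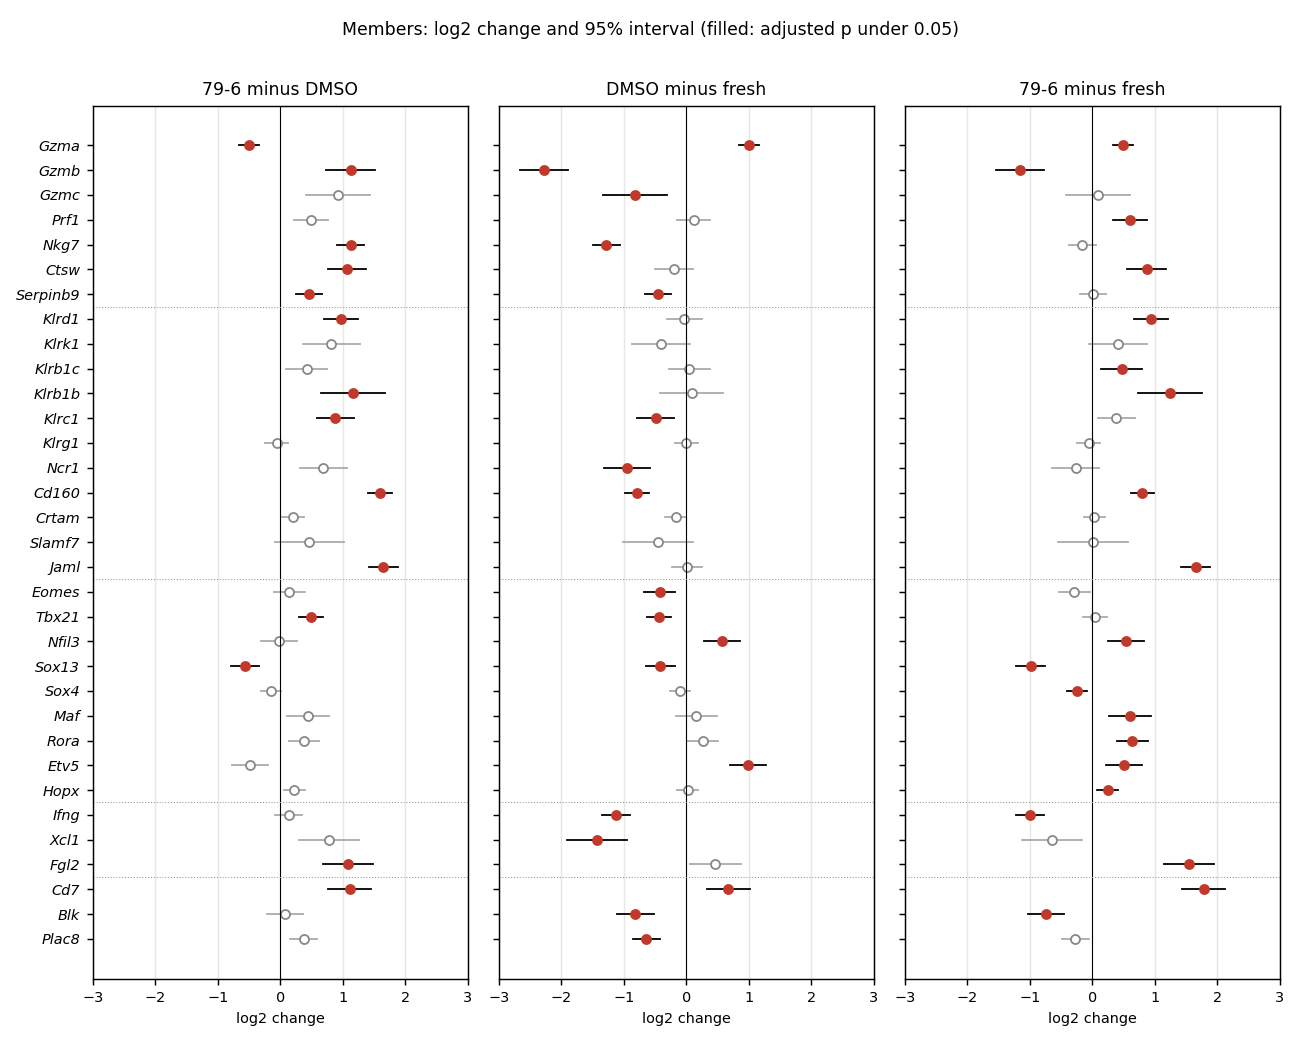
Log2 change (x axis) of the 33 measured members (y axis, ordered by role, dotted lines between roles) in 79-6 minus DMSO, DMSO minus fresh and 79-6 minus fresh; bars are 95% intervals from limma and filled points have an adjusted p under 0.05. In the left panel 12 filled points lie right of 0 and those of Gzma and Sox13 lie left of it, while in the middle panel 14 lie left of 0 and 4 right of it.

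Among the granule genes, 4 of 7 rose and Gzma fell with 79-6 against DMSO, and 4 fell and Gzma rose in DMSO against fresh cells. The calls are 71.4% of the role group in both comparisons, beside 4.36% of all genes in the first and 19.6% in the second. The role group's median was 0.93 for 79-6 against DMSO and -0.45 for DMSO against fresh. Gzmb encodes granzyme B, the protease that triggers caspases in target cells. Its signal was 9.26 and 9.25 in 79-6 arrays, 8.32 and 7.93 in DMSO arrays and 10.19 and 10.62 in fresh arrays, so the 3 groups did not overlap. Gzmb was 2.18-fold higher with 79-6 than with DMSO (log2 change 1.13 ± 0.17, SE; adjusted p = 0.017, limma). It was 4.86-fold lower in DMSO than in fresh cells (-2.28 ± 0.17, adjusted p = 0.00015), and in 79-6 cells it still lay 2.23-fold below fresh cells (adjusted p = 0.0024).

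Gzma, which encodes granzyme A, a tryptase of the same granules, ran the other way. It stood at 11.79 and 11.74 in 79-6 arrays, 12.28 and 12.26 in DMSO arrays and 11.26 and 11.27 in fresh arrays, again without overlap between groups. The change was -0.51 ± 0.07 for 79-6 against DMSO (adjusted p = 0.013) and 1.004 ± 0.068 for DMSO against fresh (adjusted p = 0.00011). Gzmc, the neighbour of Gzmb on chromosome 14 in RefSeq's gene list with no protein-coding gene between them, had 9.15 and 9.09 in 79-6 arrays, 8.18 and 8.20 in DMSO arrays and 8.63 and 9.41 in fresh arrays. It fell in DMSO against fresh cells (-0.83, adjusted p = 0.036), a change of -0.43 without fresh replicate 2. That call was lost without DMSO replicate 1 (adjusted p = 0.15), DMSO replicate 2 (0.13) or either 79-6 array (0.056). With 79-6 its change against DMSO was 0.93 ± 0.22, and the adjusted p of 0.063 missed the threshold, although it was 0.0044 without either fresh array. Probe sets of the granzyme family can also read related genes.

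Nkg7, a protein of granule membranes, stood at 11.94 and 11.87 in 79-6 arrays, 10.68 and 10.88 in DMSO arrays and 11.99 and 12.13 in fresh arrays. It was 2.18-fold higher with 79-6 than with DMSO (1.12 ± 0.09, adjusted p = 0.0027) and 2.43-fold lower in DMSO than in fresh cells (adjusted p = 0.00015). Between 79-6 and fresh cells the difference was -0.16, with a 95% interval of -0.38 to 0.06. Ctsw, the cysteine protease cathepsin W of cytotoxic cells, had 10.55 and 10.62 with 79-6, 9.60 and 9.45 with DMSO and 9.52 and 9.91 in fresh cells, and rose by 1.06 ± 0.13 with 79-6 against DMSO (adjusted p = 0.010). Ctsw was also higher with 79-6 than in fresh cells, by 0.87 (adjusted p = 0.0029), while its DMSO and fresh arrays overlapped.

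Prf1 encodes the pore-forming protein perforin. It stood at 7.20 and 7.40 in 79-6 arrays, 6.84 and 6.77 in DMSO arrays and 6.54 and 6.83 in fresh arrays. It rose in 79-6 against fresh cells (0.61 ± 0.12, adjusted p = 0.0079), while 0.49 ± 0.12 against DMSO did not pass (adjusted p = 0.063). Serpinb9, the serpin that protects killer cells from their own granzyme B, had 8.04 and 7.84 with 79-6, 7.52 and 7.44 with DMSO and 7.90 and 7.96 in fresh cells. It was lower in DMSO than in fresh cells (-0.45, adjusted p = 0.012) and higher with 79-6 than with DMSO (0.46, adjusted p = 0.038). Leaving out any 1 of the 6 arrays ended the call against DMSO, with adjusted p-values of 0.063 to 0.19. The call of DMSO against fresh was lost without DMSO replicate 2 (0.077) or fresh replicate 2 (0.073). In 79-6 against DMSO, Gzma and Ctsw lost their calls without 79-6 replicate 2 (0.077 and 0.073), DMSO replicate 1 (0.089 and 0.065) or DMSO replicate 2 (0.092 and 0.086). Gzmb lost its call there without 79-6 replicate 1 (0.054), 79-6 replicate 2 (0.10) or DMSO replicate 2 (0.11).

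**Figure D3:**
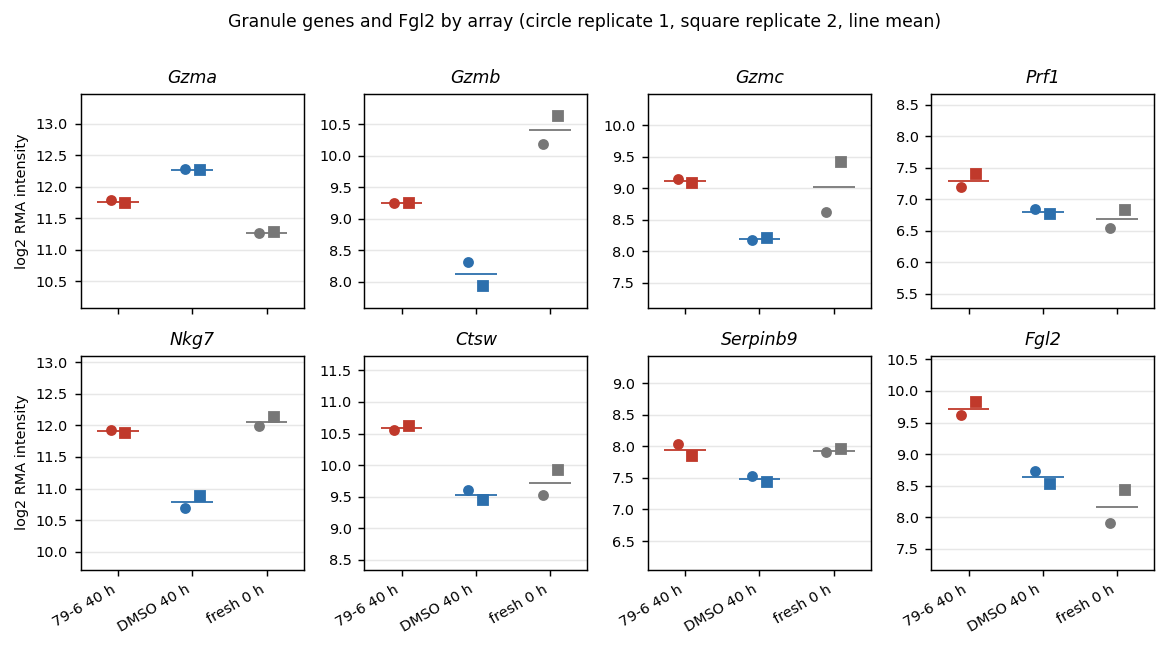
Log2 RMA intensity (y axis, the same span of 3.4 units in every panel) of 7 granule genes and Fgl2 on each array, by group (x axis); circles are replicate 1, squares replicate 2 and lines group means. Gzmb lies highest in fresh and lowest in DMSO cells, Gzma highest in DMSO and lowest in fresh cells, and both 79-6 arrays lie between.

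The promoters of 3 granule genes are shown because Gzmb and Nkg7 rose and Gzma fell with 79-6 against DMSO. The stretches run 5′ to 3′ from 250 bases before the annotated start to 50 bases after it and come from RefSeq (build GRCm38.p6), with the letters TGTGGT, the core bound by Runx factors, or their reverse complement in capitals. Those of Gzmb (chr14:56262285-56262584, minus strand, 2 matches), Gzma (chr13:113100932-113101231, minus strand, 1 match) and Nkg7 (chr7:43436888-43437187, plus strand, 1 match) read as follows.
Gzmb promoter: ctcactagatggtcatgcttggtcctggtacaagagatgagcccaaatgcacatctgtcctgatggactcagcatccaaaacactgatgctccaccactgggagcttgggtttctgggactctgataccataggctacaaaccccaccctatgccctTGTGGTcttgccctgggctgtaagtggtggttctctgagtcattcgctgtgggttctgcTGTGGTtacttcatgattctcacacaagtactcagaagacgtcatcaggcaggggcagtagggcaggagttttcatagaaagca
Gzma promoter: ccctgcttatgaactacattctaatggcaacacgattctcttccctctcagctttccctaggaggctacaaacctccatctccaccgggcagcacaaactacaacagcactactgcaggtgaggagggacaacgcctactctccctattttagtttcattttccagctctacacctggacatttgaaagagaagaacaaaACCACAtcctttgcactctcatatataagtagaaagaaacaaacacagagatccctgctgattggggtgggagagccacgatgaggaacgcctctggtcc
Nkg7 promoter: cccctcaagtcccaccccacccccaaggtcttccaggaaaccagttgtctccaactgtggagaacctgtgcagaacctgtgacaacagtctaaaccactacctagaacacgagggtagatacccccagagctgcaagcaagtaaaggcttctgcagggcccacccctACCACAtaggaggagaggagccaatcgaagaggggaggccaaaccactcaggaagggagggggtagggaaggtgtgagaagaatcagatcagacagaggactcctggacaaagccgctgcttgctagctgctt
All 3 stretches hold the core. A match of letters is a description and shows no binding.

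Of the 11 receptor genes 5 were called with 79-6 against DMSO, all higher (45.5%, beside 4.36% of all genes). In DMSO against fresh cells 3 were called, all lower (27.3%), a share near the 19.6% of all genes. The role group's median was 0.81 for 79-6 against DMSO and -0.17 for DMSO against fresh. The member with the largest rise in 79-6 against DMSO was Jaml, an adhesion molecule that costimulates epithelial gamma-delta T cells. Jaml stood at 8.56 and 8.52 in 79-6 arrays, 6.94 and 6.85 in DMSO arrays and 6.75 and 7.01 in fresh arrays. It was 3.13-fold higher with 79-6 than with DMSO (1.64 ± 0.10, adjusted p = 0.00084), whereas DMSO and fresh cells differed by 0.01 (95% interval -0.22 to 0.24).

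Cd160, a receptor for nonclassical MHC class I and for the herpesvirus entry mediator, had 8.66 and 8.75 in 79-6 arrays, 7.17 and 7.07 in DMSO arrays and 7.86 and 7.95 in fresh arrays. It rose 3.01-fold with 79-6 against DMSO (1.59 ± 0.08, adjusted p = 0.00036) and was 1.72-fold lower in DMSO than in fresh cells (adjusted p = 0.00067). In 79-6 cells it also lay above fresh cells, by 0.80 ± 0.08 (adjusted p = 0.00050). Of the 33 members Cd160 alone was called lower in DMSO than in fresh cells and higher in 79-6 than in either.

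Klrd1 (CD94) and Klrc1 (NKG2A) encode the chains of an inhibitory receptor dimer, and Klrk1 encodes NKG2D, an activating receptor for stress ligands. On chromosome 6 Klrd1 and Klrk1 are neighbours, and 3 protein-coding genes lie between Klrd1 and Klrc1 in RefSeq's list. Klrd1 had 8.56 and 8.43 with 79-6, 7.56 and 7.49 with DMSO and 7.39 and 7.73 in fresh cells, and rose by 0.97 ± 0.12 against DMSO (adjusted p = 0.0096). Klrc1 had 8.01 and 8.05 with 79-6, 7.25 and 7.06 with DMSO and 7.47 and 7.82 in fresh cells. It rose by 0.88 ± 0.13 with 79-6 (adjusted p = 0.016) and was lower in DMSO than in fresh cells (-0.49, adjusted p = 0.032). Klrk1 had 7.22 and 7.06, 6.58 and 6.08, and 6.50 and 6.96 in 79-6, DMSO and fresh arrays; 0.81 ± 0.20 for 79-6 against DMSO did not pass (adjusted p = 0.066).

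Klrb1b and Klrb1c lie side by side on the same chromosome and encode NKR-P1 lectins, of which the Klrb1c product is the NK1.1 antigen of some mouse strains. Klrb1b had 10.80 and 11.10 in 79-6 arrays, 9.86 and 9.72 in DMSO arrays and 9.35 and 10.06 in fresh arrays. It rose with 79-6 by 1.16 ± 0.22 against DMSO (adjusted p = 0.034) and by 1.24 against fresh cells (adjusted p = 0.0053). Klrb1c had 6.47 and 6.77, 6.19 and 6.20, and 5.97 and 6.33 in 79-6, DMSO and fresh arrays, and passed only against fresh cells (0.47, adjusted p = 0.045). That call was lost without 79-6 replicate 2 (0.21), either DMSO array (0.076) or fresh replicate 1, where the change was 0.29 (0.22). Ncr1, the NKp46 receptor of NK cells, had 7.83 and 7.60 with 79-6, 7.04 and 7.01 with DMSO and 7.74 and 8.23 in fresh cells. It was lower in DMSO than in fresh cells (-0.95 ± 0.16, adjusted p = 0.0056), and its change of 0.69 with 79-6 missed the threshold (adjusted p = 0.060; 0.021 without either fresh array). Lectin receptor genes of this region are alike in sequence, and their probe sets can read related genes.

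The other receptor members did not pass the test in any comparison. Klrg1, an inhibitory receptor of mature killer cells, lay between 4.86 and 5.01 on all 6 arrays, and its 95% interval for 79-6 against DMSO was -0.24 to 0.12. Crtam, an adhesion receptor of activated killer cells, lay between 5.68 and 5.94. The mean signals of Klrg1 and Crtam ranked at the 13.8 and 29.1 percentile of all genes. Without detection calls, a change near background could be missed for them. Slamf7, an activating receptor of the SLAM family, ran from 7.93 to 8.16 with 79-6, from 7.51 to 7.65 with DMSO and from 7.62 to 8.44 in fresh cells. Without fresh replicate 1 its difference between DMSO and fresh cells was called (-0.86, adjusted p = 0.0084). In 79-6 against DMSO the calls of Klrd1 and Klrc1 were lost without 79-6 replicate 2 (0.052 and 0.10), DMSO replicate 1 (0.070 and 0.072) or DMSO replicate 2 (0.084 and 0.12). That of Klrb1b was lost without any 1 of the 4 arrays compared (0.058 to 0.18) and with trend and robust moderation of the variances (0.099). The fall of Klrc1 in DMSO was lost without DMSO replicate 1 (0.066), DMSO replicate 2 (0.17) or fresh replicate 2, where the change was -0.31 (0.15).

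**Figure D4:**
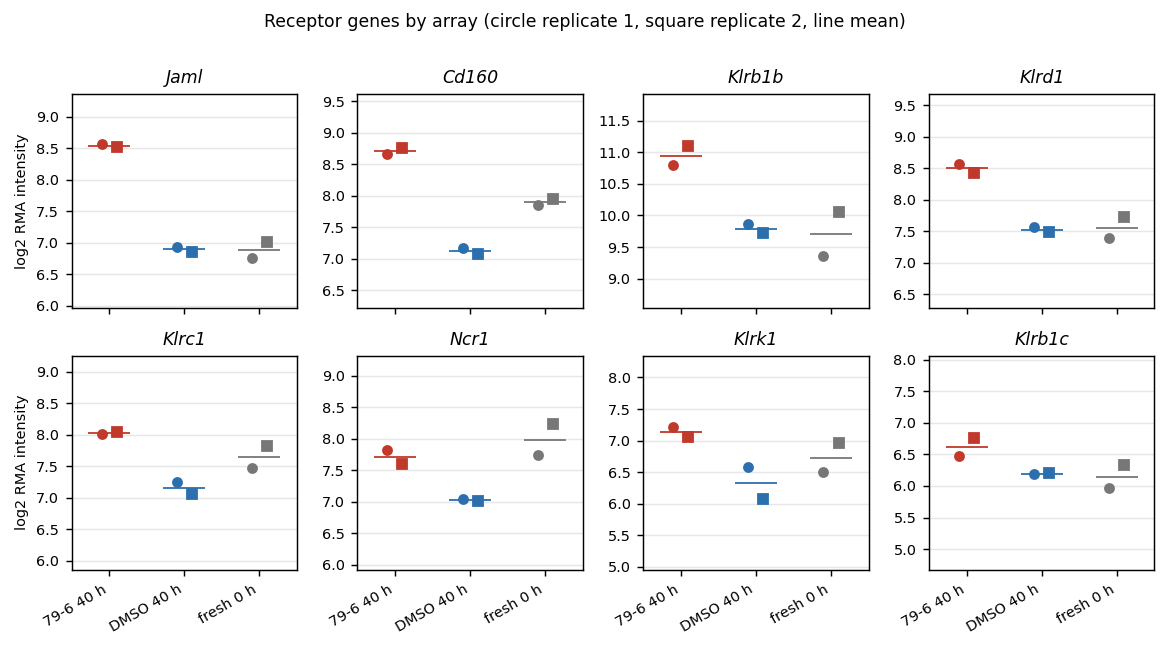
Log2 RMA intensity (y axis, the same span of 3.4 units in every panel) of 8 receptor genes on each array, by group (x axis); circles are replicate 1, squares replicate 2 and lines group means. For Jaml, Cd160, Klrb1b, Klrd1 and Klrc1 both 79-6 arrays lie above all 4 other arrays.

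The promoters of both receptor genes with the largest rises are shown in the same way as those of the granule genes. They are Cd160 (chr3:96829302-96829601, minus strand, 1 match, the first of 2 starts listed) and Jaml (chr9:45078933-45079232, plus strand, 1 match).
Cd160 promoter: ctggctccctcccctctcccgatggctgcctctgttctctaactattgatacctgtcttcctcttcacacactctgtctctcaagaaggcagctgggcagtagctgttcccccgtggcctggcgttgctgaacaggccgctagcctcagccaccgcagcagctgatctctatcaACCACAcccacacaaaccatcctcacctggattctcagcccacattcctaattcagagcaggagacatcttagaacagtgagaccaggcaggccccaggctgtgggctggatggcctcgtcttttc
Jaml promoter: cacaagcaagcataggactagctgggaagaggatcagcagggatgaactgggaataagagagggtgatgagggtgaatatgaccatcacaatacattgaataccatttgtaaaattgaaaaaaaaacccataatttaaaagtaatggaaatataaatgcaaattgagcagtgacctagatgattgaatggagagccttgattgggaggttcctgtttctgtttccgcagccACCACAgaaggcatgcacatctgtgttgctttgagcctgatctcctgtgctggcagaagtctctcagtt
Of 26 measured members with a promoter in RefSeq's table, 14 (53.8%) held TGTGGT on either strand, beside 18.9% of 27025 genes. GGTGTGA, a core of T-box factors, was in 4 members (15.4%), beside 4.6% of all genes, and GCGTG, the core of the xenobiotic response element, was in 5 (19.2%), beside 35.2%. TTCCNNGAA, a form of the Bcl6 site, was in 2, Fgl2 and Nkg7 (7.7%), beside 5.6%. In all 9 motifs were searched, on both strands and each on its own, so that matches of different motifs may overlap. The others were TGANTCA for AP-1 (15.4% beside 9.0%), CANCTG for E-boxes (73.1% beside 54.6%), GGAAA for NFAT (73.1% beside 64.4%), CCGGAA for Ets factors (3.8% beside 16.7%) and AGATAA for GATA factors (0.0% beside 12.7%). They were chosen with the members' values known, and these shares carry no test. Of the 12 members that rose with 79-6, 9 had a promoter in the table. Among those 9, GGAAA was in 8, CANCTG in 7 and TGTGGT in 6. The T-box, AP-1, xenobiotic response element and Bcl6 letters were each in 2, and the Ets and GATA letters in 0.

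Transcription regulators divided. Of 9, Tbx21 rose and Sox13 fell with 79-6 against DMSO, and Nfil3 and Etv5 rose and Eomes, Tbx21 and Sox13 fell in DMSO against fresh cells. These are 22.2% of the role group, beside 4.36% of all genes, and 55.6%, beside 19.6%. Tbx21 encodes T-bet, which drives interferon-gamma and granule genes. It had 7.77 and 7.84 in 79-6 arrays, 7.35 and 7.27 in DMSO arrays and 7.68 and 7.82 in fresh arrays. The change was 0.49 ± 0.08 for 79-6 against DMSO (adjusted p = 0.025) and -0.44 ± 0.08 for DMSO against fresh (adjusted p = 0.0090), and 79-6 and fresh arrays overlapped. Eomes, the related T-box factor of mature NK cells, had 5.69 and 5.95, 5.69 and 5.66, and 6.03 and 6.18 in 79-6, DMSO and fresh arrays, and fell in DMSO against fresh cells (-0.43, adjusted p = 0.027).

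Sox13 and Sox4 are HMG-box factors needed by interleukin-17-producing gamma-delta T cells. Sox13 had 7.69 and 7.87 with 79-6, 8.36 and 8.34 with DMSO and 8.86 and 8.67 in fresh cells. It fell by 0.57 with 79-6 against DMSO (adjusted p = 0.026), was lower in DMSO than in fresh cells (-0.42, adjusted p = 0.023) and lay 1.98-fold below fresh cells with the compound (adjusted p = 0.00045). Sox4 kept the same order of groups over a narrower range, 9.998 and 9.945 with 79-6, 10.12 and 10.13 with DMSO and 10.21 and 10.23 in fresh cells. It passed only for 79-6 against fresh (-0.25, adjusted p = 0.034), and this call was lost without any 1 of the 6 arrays (0.053 to 0.16) and with the arrays set to 1 median.

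Etv5, an Ets-family factor active in gamma-delta T cells, moved as Gzma did. Its brighter probe set had 7.54 and 7.38 in 79-6 arrays, 8.03 and 7.86 in DMSO arrays and 6.80 and 7.11 in fresh arrays. It rose in DMSO against fresh cells by 0.99 ± 0.12 (adjusted p = 0.0015) and in 79-6 against fresh cells by 0.51 (adjusted p = 0.021), and -0.48 for 79-6 against DMSO did not pass (adjusted p = 0.076). Its other probe set gave -0.64, 0.74 and 0.10 for 79-6 against DMSO, DMSO against fresh and 79-6 against fresh, and with the mean of both the fall with 79-6 against DMSO was called (-0.56, adjusted p = 0.015). Nfil3, required for NK and innate lymphoid cells to form, had 8.28 and 8.34 with 79-6, 8.15 and 8.51 with DMSO and 7.70 and 7.83 in fresh cells. It was higher than fresh after culture in both groups (0.55, adjusted p = 0.016, with 79-6 and 0.56, adjusted p = 0.018, with DMSO).

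Maf, which directs innate-like T cells, and Rora, a factor of innate lymphoid cells, had their highest signals with 79-6. Maf had 9.996 and 10.105 with 79-6, 9.48 and 9.73 with DMSO and 9.25 and 9.64 in fresh cells. Rora had 8.43 and 8.55, 8.06 and 8.16, and 7.72 and 7.98 in the same order of groups. Both passed only for 79-6 against fresh (0.60, adjusted p = 0.019 for Maf and 0.64, adjusted p = 0.0040 for Rora), as did the homeodomain-only gene Hopx, by 0.25 (adjusted p = 0.043). Against fresh cells the call of Maf was lost without 79-6 replicate 2 (0.093) or fresh replicate 1 (0.089). That of Hopx held only without 79-6 replicate 1 among the 6 fits, with adjusted p-values of 0.071 to 0.20 in the others, and was lost with quantile normalization (0.097). Both calls of Nfil3 were lost without fresh replicate 1 (0.091 with 79-6 and 0.099 with DMSO), that with 79-6 also without 79-6 replicate 2 (0.074) and that with DMSO without DMSO replicate 2 (0.065). The call of Etv5 with 79-6 was lost without 79-6 replicate 1 (0.083) or fresh replicate 1 (0.11). In 79-6 against DMSO the calls of Tbx21 and Sox13 were lost without any 1 of the 4 arrays compared (0.051 to 0.15 and 0.067 to 0.14). In DMSO against fresh, that of Eomes was lost without any 1 of the 4 arrays (0.055 to 0.15), that of Sox13 without either DMSO array (0.094 and 0.10) or fresh replicate 1 (0.14), and that of Tbx21 without DMSO replicate 2 (0.062) or fresh replicate 2 (0.067).

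Of the 3 mediators Fgl2 rose with 79-6 against DMSO, and Ifng and Xcl1 fell in DMSO against fresh cells. These are 33.3% of the role group, beside 4.36% of all genes, and 66.7%, beside 19.6%. Ifng, the gene of interferon-gamma, had 6.68 and 6.86 in 79-6 arrays, 6.60 and 6.67 in DMSO arrays and 7.68 and 7.84 in fresh arrays. It was lower than fresh in both cultured groups (-0.99, adjusted p = 0.00038, with 79-6 and -1.13, adjusted p = 0.00027, with DMSO), and the difference between them was 0.13 (95% interval -0.09 to 0.35). Xcl1, a chemokine that attracts cross-presenting dendritic cells, had 9.43 and 9.53 with 79-6, 8.94 and 8.48 with DMSO and 9.85 and 10.42 in fresh cells. It fell in DMSO against fresh cells (-1.42 ± 0.20, adjusted p = 0.0030). With 79-6 it stood 0.77 above DMSO (adjusted p = 0.085; 0.047 without either fresh array) and differed from fresh by -0.65 (adjusted p = 0.055), and neither change passed.

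Fgl2, a fibrinogen-like protein that is secreted by regulatory T cells and is also made by macrophages, had 9.61 and 9.82 with 79-6, 8.73 and 8.53 with DMSO and 7.90 and 8.43 in fresh cells. It rose with 79-6, by 1.08 ± 0.17 against DMSO (adjusted p = 0.021) and by 1.55 against fresh cells (adjusted p = 0.00075). This is the order of groups that the macrophage and dendritic marker mean also shows (9.98 and 10.06, 9.46 and 9.54, and 8.08 and 8.80), and the part of those cells was not tested. The rise against DMSO was lost without 79-6 replicate 2 (0.12), DMSO replicate 1 (0.091) or DMSO replicate 2 (0.15). In DMSO against fresh cells 0.47 was not called (adjusted p = 0.11), but was without fresh replicate 2 (0.73, adjusted p = 0.017).

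Cd7, an immunoglobulin-family receptor of T and NK lineages, was the member furthest above fresh cells. It had 11.99 and 12.07 in 79-6 arrays, 10.94 and 10.91 in DMSO arrays and 10.01 and 10.50 in fresh arrays, so it rose in DMSO against fresh cells (0.67 ± 0.15, adjusted p = 0.017) and again with 79-6 (1.11 ± 0.15, adjusted p = 0.012). Against fresh cells the 79-6 level was 3.43-fold higher (adjusted p = 0.00021). The call against DMSO was lost without 79-6 replicate 2 (0.088), DMSO replicate 1 (0.086) or DMSO replicate 2 (0.096). The rise in DMSO was lost without either DMSO array (0.093 and 0.078) and was 0.43 without fresh replicate 1.

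Blk, a Src-family kinase of B cells and of interleukin-17-producing gamma-delta T cells, had 6.24 and 6.23 with 79-6, 6.15 and 6.16 with DMSO and 7.16 and 6.77 in fresh cells, and was lower than fresh in both cultured groups (-0.73, adjusted p = 0.0046, and -0.81, adjusted p = 0.0037). Plac8, a cysteine-rich protein of myeloid and lymphoid cells, had 12.13 and 12.01, 11.80 and 11.60, and 12.31 and 12.37 in 79-6, DMSO and fresh arrays. It fell in DMSO against fresh cells (-0.64, adjusted p = 0.0030), and 0.37 with 79-6 against DMSO did not pass (adjusted p = 0.072).

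In 18 of 33 members (54.5%, beside 73.5% of all genes) the arrays of at least 1 pair of groups overlapped, and the others fell into 5 orders. The order fresh above 79-6 above DMSO held for 6 members (18.2%, beside 3.7% of all genes): Gzmb, Nkg7, Ifng, Xcl1, Blk and Plac8. An order rests on arrays that do not overlap, not on calls. For 79-6 against DMSO, Gzmb and Nkg7 were called, while Ifng, Xcl1, Blk and Plac8 were not. The mirror order, DMSO above 79-6 above fresh, held for Gzma and Etv5 (6.1%, beside 4.36%). Rora, Fgl2 and Cd7 stood highest with 79-6 and lowest in fresh cells (9.1%, beside 7.88%), Klrc1 and Cd160 highest with 79-6 and lowest with DMSO (6.1%, beside 1.76%), and Sox13 and Sox4 highest in fresh cells and lowest with 79-6 (6.1%, beside 7.31%).

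Genes of the same systems that are no members were counted from 5 lists, also chosen with earlier results of these data known. Among 16 other granzyme and exocytosis genes Serpinb6b, a serpin gene related to Serpinb9, was the 1 called with 79-6 against DMSO (0.83, adjusted p = 0.0086; 6.25% of the list, beside 4.36% of all genes). In DMSO against fresh 25% of the list was called, beside 19.6% of all genes, and 2 of the list rose, Ctsc (1.12) and Lyst (0.44), and 2 fell, Serpinb6b (-0.59) and Rab27a (-0.39). The list's median was 0.12 for 79-6 against DMSO. The other 7 granzyme genes of the list, Gzmd, Gzme, Gzmf, Gzmg, Gzmk, Gzmm and Gzmn, which were picked out after their values were seen, had adjusted p-values of 0.27 or more in every comparison. Their mean signals ranked from the 5.3 percentile of all genes (Gzmd) to the 36.6 percentile (Gzmm). No detection calls were used, so a change near background could be missed. Of 20 other NK-type receptors and adaptors 4 (20%, beside 4.36% of all genes) were called with 79-6 against DMSO, all higher. They were Klra5 (0.69, adjusted p = 0.031), Klrb1a (0.48, 0.048), Cd96 (0.47, 0.017) and Klrc2 (0.45, 0.045), and the list's median was 0.32. For single genes of these lists, fits without an array were not examined. In DMSO against fresh cells 8 rose and 3 fell (55% called, beside 19.6% of all genes). The rises were led by Sh2d1b1 (1.31), Fcgr3 (1.14), Cd226 (1.04) and Tyrobp (1.01), of which Fcgr3 and Tyrobp are also expressed by macrophages.

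Of 15 other regulators of these lineages 4 (26.7%, beside 4.36% of all genes) were called with 79-6 against DMSO, all higher. They were Runx3 (0.77, adjusted p = 0.0035), Id2 (0.65, 0.019), Ikzf2 (0.46, 0.025) and Zbtb16 (0.43, 0.036), and the list's median was 0.02. Id2 blocks E proteins and is needed for NK and innate lymphoid cells, and Zbtb16 encodes PLZF, a factor of innate-like T cells. Both were lower in DMSO than in fresh cells (-0.58, adjusted p = 0.0062 for Id2 and -0.59, adjusted p = 0.0025 for Zbtb16). In that comparison 6 of the 15 rose, Id3 (2.46) and Ikzf2 (0.97) furthest, and 3 fell (60% called, beside 19.6% of all genes). Of 20 cytokines, death ligands and cytokine receptors 4 (20%, beside 4.36% of all genes) were called with 79-6 against DMSO, all higher, and the list's median was 0.32. They were Il2rb (0.85, adjusted p = 0.027), the beta chain of the receptors for interleukins 2 and 15, Il18rap (0.66, 0.047), Il12rb1 (0.38, 0.049) and Il12rb2 (0.34, 0.041). In DMSO against fresh 2 of the 20 rose and 4 fell (30% called, beside 19.6% of all genes), Tnfsf10 (-1.46) and Il7r (-1.001) furthest. Of 13 entries for gamma-delta receptor genes 1 was measured, Trgv1, which rose with 79-6 against DMSO (0.36, adjusted p = 0.035). Without Rag1 this gene is not rearranged, so its signal is no marker of gamma-delta T cells here.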

How the data were processed

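RNA of Thy1.2+ cells was measured on 6 one-colour Affymetrix whole-transcript arrays, 2 for each of 3 groups. The deposited values are linear intensity values per probe set, made by the authors with RMA and the R package oligo, per the submitters' processing notes, with versions and genome build not given in the sources used here. They ran from 8.75 to 25316, with array medians of 99.3 to 103.6. Arrays have no count depth, and the number of arrays limits the precision.

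Of 34760 probe sets, 21640 had 1 gene symbol in the platform annotation, 1321 several and 11799 none. The brightest 1-symbol probe set stood for each of 19937 genes. The log2 of the deposited intensities was fitted by limma (version 3.58.1, under R 4.3.3) with 1 mean per group over all 6 arrays, using lmFit and eBayes. The fit had 3 residual degrees of freedom and a prior of 4.24. Tests were two-sided, and p-values were adjusted by Benjamini-Hochberg across the whole gene table and called at 0.05. The procedure was tested on simulated data with independent normal noise, a setting without shared array effects or shifts in cell mixture. RMA normalizes arrays to each other, so a shift common to most genes would not be seen. An exact test of 2 arrays against 2 cannot go below p = 0.333, so single values were not tested that way.

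The members and lists were chosen with earlier results of these data known. All members are named, and from each other list up to 4 called genes with the largest changes in a comparison, plus Thy1 and NK-defining markers. Cd3e, Cd3g, Ptcra, Itgax, C1qa and the 7 further granzyme genes were named after their values were seen. A ranking of genes by likeness to Gzmb was planned and is not given, since the arrays fall into 3 clusters of 2; the order of groups is given instead. Promoters come from RefSeq (GRCm38.p6). The 14 alternatives were other scalings, filters, probe set choices, moderation, a replicate term and leaving out each array. Serpina3g is not analysed here.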

Additional observations from a re-analysis of the deposited data

How the results depend on the processing

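Over 14 alternative settings, the 99 log2 changes of members (33 members in 3 comparisons) stayed on the same side of the threshold in 1218 cases, lost a call in 95 and gained one in 46. No change called in the main or the alternative setting turned its sign, while 26 cases called in neither did. These tallies count some fits more than once. In each comparison, leaving out either array of the third group gave the same calls as fitting only the 4 arrays compared. Of the called members, 3 of 14 in 79-6 against DMSO, 10 of 18 in DMSO against fresh and 14 of 20 in 79-6 against fresh were called in every setting that tested them, since the filter on dim probe sets leaves out 9 members. In 79-6 against DMSO, genes called numbered 1556 with dim probe sets left out and 1723 with trend and robust moderation, against 869. Leaving out 1 array at a time gave, for 79-6 against DMSO, 93 to 661 genes called and 3 to 16 members, 3 to 14 of them higher and 0 to 2 lower. For DMSO against fresh it gave 2286 to 4070 genes and 10 to 17 members, 2 to 5 of them higher and 8 to 13 lower. For 79-6 against fresh it gave 3081 to 5068 genes and 16 to 20 members, 10 to 16 of them higher and 4 to 6 lower. With the replicate number as a block (replicate block), 774, 3667 and 4852 genes were called in the 3 comparisons, against 869, 3902 and 5174, and Sox4 (adjusted p = 0.058) and Hopx (0.070) lost their calls in 79-6 against fresh. Same-numbered arrays shared only a number: their deviations from the group means correlated at -0.074, 0.0948 and 0.00357 in the 3 pairs of groups. The causes of these changes were not tested. With 2 arrays a group, a fit without 1 array assumes that the lone array of its group varies like the others.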
